A study of Homo sapiens with 12 samples.

Results

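The 30 genes described here run glycolysis and the pentose phosphate pathway, and their RNA was followed across 4 breast epithelial cell lines of human origin. The members were fixed by name: glucose and lactate transporters, the isoenzymes of glycolysis with their regulators, the pyruvate dehydrogenase step, the link to glycogen and the pentose phosphate enzymes. All 30 had a row among the 29744 gene rows of the table, and all 30 passed the filter on low counts, beside 14417 genes tested in all. The lines form 1 series of descent, each sequenced as 3 biological replicates (12 libraries). A10 is MCF10A, an immortalised and non-tumorigenic mammary line. Introducing a mutant HRAS into it gave NeoT (MCFNeoT), which the labels place at benign hyperplasia. Xenograft passage of NeoT gave T1, or MCFT1, labelled atypical hyperplasia, and CA1, or MCFCA1, labelled invasive cancer, so NeoT, T1 and CA1 all carry the mutant HRAS and A10 does not. The labels group all 4 as triple-negative, name no treatment, and give 1 line per stage, so a stage cannot be told apart from the line that stands for it.

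Glycolysis splits glucose into pyruvate. Hexokinase traps glucose that enters through GLUT transporters, phosphofructokinase sets the pace under the control of the PFKFB enzymes, and the later steps yield ATP and pyruvate. Lactate dehydrogenase reduces pyruvate to lactate, which leaves through MCT transporters, while the pentose phosphate pathway diverts glucose 6-phosphate to make NADPH and ribose. Tumour cells are known for high glucose uptake and lactate release, and the transcription factors HIF1 and MYC are textbook activators of many of these genes.

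Libraries held 18032399 to 35730423 counts. HRAS, checked first, stood at 61.7 to 69.8 CPM (counts relative to library size, with TMM factors) in A10, 218 to 261 in NeoT, 147 to 170 in T1 and 289 to 312 in CA1. The total covers both HRAS alleles, so it shows the amount and not the mutation. Ribosomal RNA took 7.76% of T1 replicate 1 and 0.954% to 2.18% of the other 11 libraries. The biological coefficient of variation was 16% in NeoT, where replicate 3 stood apart from the others, and 6.42% to 8.6% in the other lines. Of 8 epithelial marker genes, 6 were lower in NeoT than in A10, KRT8 was higher (473 against 147 CPM) and KRT18 did not differ by the test. All 8 summed to 790 to 911 CPM in NeoT, 5650 to 6080 in A10, 6800 to 7220 in T1 and 8470 to 9230 in CA1. The CA1 sum was mostly KRT8 and KRT18 (means of 3699 and 3188 CPM). Against A10, 3 of the 8 were higher in CA1 and 4 lower, among them KRT5 (271 against 3347 CPM). CDH1 (E-cadherin) averaged 0.691 CPM in NeoT against 313 in A10, and TP63 had no count there. All 4 mesenchymal markers were higher in NeoT than in A10, with a sum of 16500 to 20100 CPM against 1880 to 2090, 171 to 182 in T1 and 401 to 425 in CA1. Of 5 fibroblast markers, DCN (decorin) averaged 632 CPM in NeoT and 69.1 in A10, and COL1A1 stood at 8.14 and 5.09, while COL1A2, COL3A1 and PDGFRB stayed under 0.5 CPM in each line's mean. All 3 adipocyte markers tested (PLIN1, FABP4 and CIDEC) were higher in NeoT than in A10, with a summed level of 35.1 to 46.6 CPM against 0.0361 to 0.409, 0.64 to 0.949 in T1 and 4.44 to 6.39 in CA1, and ADIPOQ was at 0 in every library. The 4 endothelial markers summed to 82.7 to 90.5 CPM in T1, nearly all PECAM1, and to 2.59 to 25.0 in the other lines. The 5 leukocyte markers summed to 18.6 to 98.9 CPM over all libraries, nearly all CD14, and PTPRC and CD3E were at 0 in every library. NeoT values below come from libraries with these marker levels, and the part of the markers in the results of any line was not tested. In a bulk library a lower level can mean fewer cells making the RNA or less RNA per cell, and these cannot be told apart.

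The members did not rise together with the named stage. NeoT against A10 had 18 members called higher and 10 lower, where 33.7% of all genes tested were called higher and 36.7% lower (edgeR quasi-likelihood test, Benjamini-Hochberg adjusted p under 0.05 over all genes). T1 against A10 had 13 higher and 5 lower, beside 26% and 25.9% of all genes. CA1 against A10 had 13 higher and 14 lower, beside 34.4% and 36.5%. The 3 comparisons share the A10 libraries. Abundant genes were called more often: among the 2029 genes averaging at least 100 CPM, 46.2% were higher and 36.5% lower in NeoT, 38.6% and 25% in T1, and 47.7% and 32.4% in CA1.

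Differences of at least 2-fold were counted apart, and for rises in NeoT and CA1 the share of members was near that of all genes. In NeoT 5 members were higher and 3 lower than A10 by at least 2-fold, beside 15.2% and 19.1% of all genes. In T1 no member was higher and 1 was lower by that much, beside 9.45% and 9.39%. In CA1 there were 5 and 4, beside 16.2% and 17.9%. The median log2 difference of the 30 members was 0.25 in NeoT, 0.05 in T1 and -0.10 in CA1, where the medians over all genes were -0.04, -0.01 and -0.02. The replicates of the 2 lines did not overlap for 29 members in NeoT, 21 in T1 and 28 in CA1, beside 70.7%, 62% and 76.9% of all genes. Members took 2.09% to 2.15% of counts in A10, 2.14% to 2.19% in NeoT, 2.15% to 2.31% in T1 and 1.94% to 2.00% in CA1. Without ribosomal RNA rows these shares were 2.13% to 2.2%, 2.2% to 2.23%, 2.31% to 2.36% and 1.97% to 2.02%, T1 highest and CA1 lowest. The shares leave out the TMM factors used for CPM. These were 1.092 to 1.114 in A10, 0.9209 to 0.9558 in NeoT, 0.9705 to 1.04 in T1 and 0.9438 to 0.962 in CA1. The order of lines in the shares therefore does not carry over to CPM. In NeoT the members at least 2-fold higher were SLC2A3, HK1, PFKM, ENO2 and TKT, and those lower SLC2A1, PFKFB2 and SLC16A1. In CA1 they were SLC2A1, HK2, ALDOC, PGM1 and TKT, against SLC2A3, TPI1, LDHA and SLC16A1. In T1 the lower member was SLC2A3. The plot of fold changes by pathway step shows members of the same step lying on both sides of 0.

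**Figure D1:**
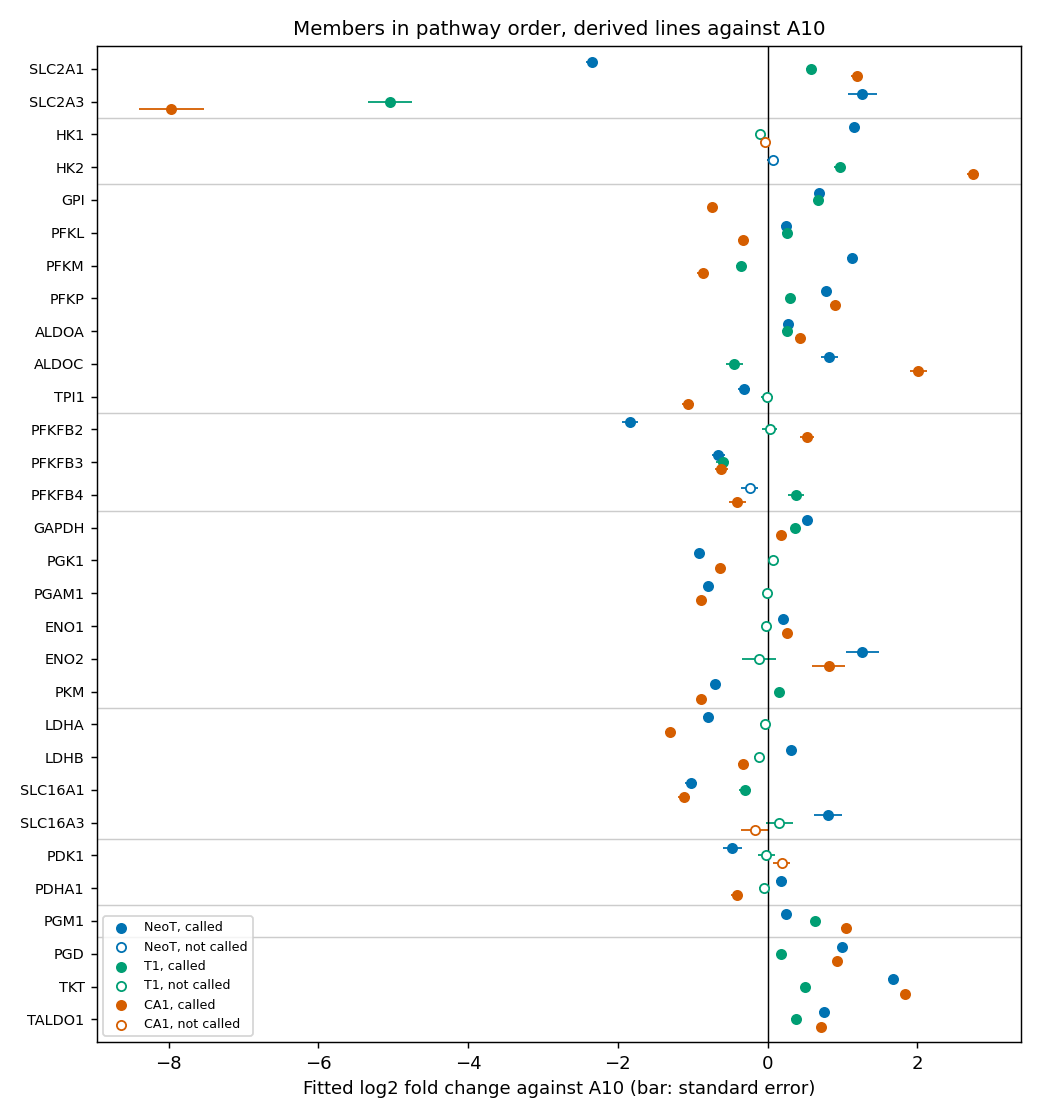
Log2 fold change of each of the 30 members against A10 in NeoT, T1 and CA1, ordered by pathway step, with bars of 1 standard error; filled points passed an adjusted p of 0.05. SLC2A1 lies at -2.35 in NeoT and 1.19 in CA1, while TKT lies at 1.67 and 1.84; the SLC2A3 point of CA1 rests on 3 counts and its position depends on the fit's prior count.

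All 30 members differed among the 4 lines in the test over all of them together, as did 89.8% of all genes. NeoT held the highest mean of 11 members, CA1 of 10, A10 of 5 and T1 of 4. CA1 held the lowest mean of 13 members, A10 of 8, NeoT of 5 and T1 of 4. Highest over lowest line, 15 members spanned at least 2-fold, and the median span was 2.025-fold. For 8 members each step between neighbours in the order of levels was called: SLC2A1, SLC2A3, PFKM, ALDOC, GAPDH, PKM, PGM1 and TKT. Of these, only PGM1 followed the order A10, NeoT, T1, CA1.

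Glucose entry differed most. SLC2A1 encodes GLUT1, the transporter for basal glucose uptake (chromosome 1, 42925353 to 42958868, GRCh38.p14). In replicates 1 to 3 it stood at 177, 208 and 214 CPM in A10, at 40.1, 37.4 and 40.0 in NeoT, at 296, 308 and 293 in T1, and at 440.4, 475 and 451 in CA1. No line overlapped another, and NeoT was the low line. NeoT was 5.1-fold below A10 (log2 -2.35, SE 0.07, adjusted p = 3.71e-15), T1 1.5-fold above it (adjusted p = 1.07e-06) and CA1 2.28-fold above it (log2 1.19, adjusted p = 2.8e-11). Between NeoT and CA1 the difference reached 11.6-fold.

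SLC2A3 encodes GLUT3, a transporter with high affinity for glucose (chromosome 12, 7919230 to 7936187). It stood at 12.9, 12.5 and 12.9 CPM for A10, 30.5, 33 and 28.6 for NeoT, 0.213, 0.222 and 0.777 for T1, and 0, 0.13 and 0 for CA1. The order of the lines was the reverse of that of SLC2A1 (NeoT, A10, T1, CA1 from high to low), and no replicates overlapped. NeoT was 2.41-fold above A10 (log2 1.27, SE 0.19, adjusted p = 1.26e-05), and T1 was 32.9-fold below it (log2 -5.04, SE 0.29, adjusted p = 7.7e-11) on 32 counts in its 3 libraries. CA1 held 3 counts in all, 1 library of 3 having any. The ratio of A10 to CA1 was 276 with a 95% counting interval of 94.3 to 1340, and that of T1 to CA1 was 8.21 with an interval of 2.57 to 41.9, both covering counting error only. Per kilobase of transcript, SLC2A3 reached 7.85 CPM in NeoT beside 10.7 for SLC2A1, whereas the values in A10 were 3.26 and 54.4. The count of SLC2A3 was 0.714 to 0.883 of that of SLC2A1 in NeoT libraries and 0.06 to 0.0727 in A10 libraries.

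The 2 hexokinases changed in different lines. HK1, the isoform of most tissues (chromosome 10, 69270000 to 69401882), stood at 261, 281 and 264 CPM in A10 and at 595, 587 and 614 in NeoT, 2.23-fold higher (log2 1.16, SE 0.05, adjusted p = 1.17e-12). Levels in T1 (252, 253 and 249) and CA1 (258, 267 and 262) did not pass the test against A10 (adjusted p = 0.146 and 0.598). HK2, the inducible isoform often raised in tumours (chromosome 2, 74834127 to 74893359), stood at 45, 50.4 and 41.7 CPM for A10, 45.8, 47.7 and 50.7 for NeoT, 88, 89.2 and 90.7 for T1, and 307, 313 and 299 for CA1. A10 and NeoT overlapped, and T1 and CA1 each stood above both. The rise against A10 was 1.95-fold in T1 (adjusted p = 1.94e-09) and 6.7-fold in CA1 (log2 2.74, SE 0.07, adjusted p = 4.43e-16). HK2 counts were 0.158 to 0.18 of HK1 counts in A10 libraries, 0.0769 to 0.0826 in NeoT, 0.349 to 0.365 in T1 and 1.14 to 1.19 in CA1. Per kilobase of transcript, CA1 had 72.8 CPM of HK1 and 53 of HK2, against 74.5 and 7.92 in A10.

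**Figure D2:**
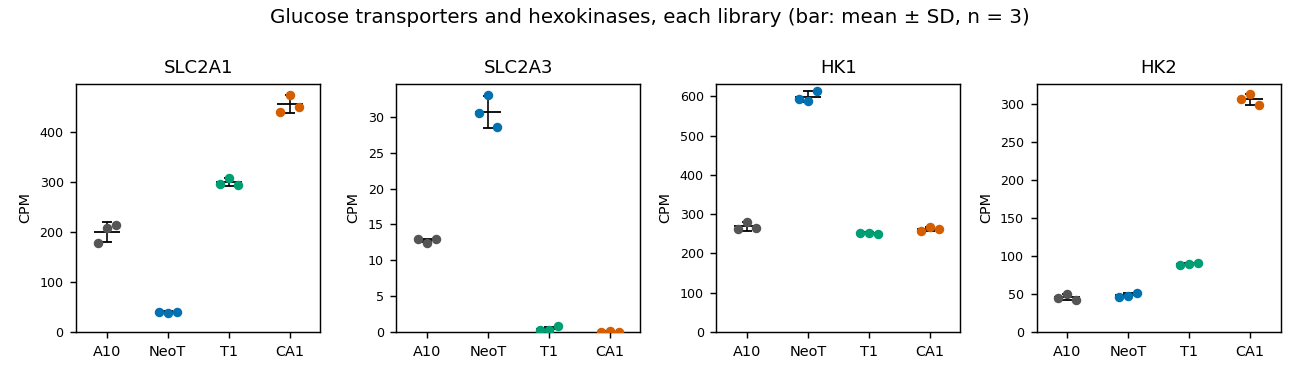
CPM of SLC2A1, SLC2A3, HK1 and HK2 in each of the 12 libraries by line, with bars for the mean and SD of 3 libraries on a linear axis from 0. NeoT is lowest for SLC2A1 (39.2 CPM) and highest for SLC2A3 and HK1, and CA1 is highest for SLC2A1 (455 CPM) and HK2 (306 CPM).

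Promoters are shown here for 4 members that moved in unlike ways: HK2 (highest in CA1), PGK1 and LDHA (lower in NeoT and CA1) and TKT (higher in NeoT and CA1, with no match). Each run is the 250 bases before the transcript start in RefSeq's table (GRCh38.p14), read 5′ to 3′ on the gene's strand. The windows are chr2:74834920-74835169 (plus strand) for HK2, chrX:78103998-78104247 (plus) for PGK1, chr11:18396101-18396350 (plus) for LDHA and chr3:53256023-53256272 (minus) for TKT. The windows of HK2 and LDHA lie inside the outermost gene bounds, since these genes have further upstream starts. Capitals mark ACGTG or GCGTG, the letters at the core of sites bound by HIF1, on either strand, so CACGT and CACGC are the same letters read from the other strand.
HK2: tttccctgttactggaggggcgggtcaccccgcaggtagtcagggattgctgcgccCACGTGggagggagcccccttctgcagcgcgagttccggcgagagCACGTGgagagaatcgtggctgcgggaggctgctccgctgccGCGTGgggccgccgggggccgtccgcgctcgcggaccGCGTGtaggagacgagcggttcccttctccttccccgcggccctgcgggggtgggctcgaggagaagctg
PGK1: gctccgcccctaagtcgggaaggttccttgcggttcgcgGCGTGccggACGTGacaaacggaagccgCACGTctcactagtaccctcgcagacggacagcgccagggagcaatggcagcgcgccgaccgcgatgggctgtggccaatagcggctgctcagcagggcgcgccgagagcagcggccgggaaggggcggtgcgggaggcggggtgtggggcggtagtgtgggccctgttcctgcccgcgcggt
LDHA: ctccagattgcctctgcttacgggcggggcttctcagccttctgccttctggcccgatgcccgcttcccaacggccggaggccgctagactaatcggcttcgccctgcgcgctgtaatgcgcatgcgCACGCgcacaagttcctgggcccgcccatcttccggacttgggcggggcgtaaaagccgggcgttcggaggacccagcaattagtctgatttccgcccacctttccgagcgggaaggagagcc
TKT: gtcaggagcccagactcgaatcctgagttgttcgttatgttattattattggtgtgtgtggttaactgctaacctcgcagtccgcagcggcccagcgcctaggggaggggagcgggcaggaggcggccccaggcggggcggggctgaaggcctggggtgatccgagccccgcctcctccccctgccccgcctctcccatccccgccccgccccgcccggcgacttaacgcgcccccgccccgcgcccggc

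The HK2 window held 6 matches at 70 to 194 bases before the start, 4 of them from a pair of CACGTG palindromes, which count once per strand. The window of PGK1 held 3 matches, that of LDHA 1 and that of TKT none. Over the 27 members with an entry (SLC2A3, PFKFB2 and SLC16A1 are not among them), ACGTG was found in 11, or 40.7%, against 18.5% of all 35116 promoters and 20.2% of the 22199 protein-coding ones. GCGTG was found in 12 (44.4%, against 32.2% and 38.3%), and either in 18 (66.7%, against 43.2% and 49.3%). The E-box CACGTG, a palindrome bound by MYC that contains ACGTG, was found in 4 members (14.8%, against 6.34% and 7.37%). The antioxidant response core TGACNNNGC was found in 6 (22.2%, against 10.9% and 11.2%). ACGTG or GCGTG occurred in members that fell and in members that rose, such as PGK1 and HK2. Both were absent from others that fell or rose, such as PGAM1 and TKT. Whether the letters go with the direction of change was not tested. A match is a run of letters and not evidence of binding. Bases just after the listed start were found in an annotated main transcript of GENCODE for 17 of the 27 members. Which start these lines use was not tested.

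In the upper trunk of glycolysis, 6 of 7 enzyme genes were higher and 1 lower in NeoT than in A10, beside 33.7% and 36.7% of all genes. In CA1 3 were higher and 4 lower, beside 34.4% and 36.5%. GPI, which isomerises glucose 6-phosphate, averaged 493 ± 14.2 CPM (SD, n = 3) for A10, 793 ± 13.6 for NeoT, 789 ± 9.01 for T1 and 294 ± 13.3 for CA1. It was 1.61-fold higher in NeoT, 1.6-fold higher in T1 and 1.68-fold lower in CA1 than in A10, each called. NeoT and T1 overlapped, and CA1 lay 2.68-fold below T1.

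The 3 phosphofructokinase genes parted. PFKM, the muscle-type subunit (chromosome 12, 48105353 to 48146404), stood at 91.9, 86.4 and 81.9 CPM for A10, 187, 189 and 193 for NeoT, 64.1, 68.5 and 71.2 for T1, and 48.5, 47 and 47.1 for CA1. It was 2.18-fold higher in NeoT (adjusted p = 2.71e-11) and 1.82-fold lower in CA1 (adjusted p = 1.73e-09), with no overlap between any lines. PFKP, the platelet-type subunit, averaged 313 ± 9.15 CPM for A10, 540.3 ± 15.9 for NeoT, 387 ± 7.35 for T1 and 582 ± 33.1 for CA1, and was called higher in all 3 derived lines. NeoT and CA1 did not differ by the test (adjusted p = 0.105). PFKL, the liver-type subunit, averaged 143 ± 10.2, 169.7 ± 10.9, 171 ± 3.38 and 114 ± 1.77 in the same order. The count ratios of the 3 genes thus differed between lines, and protein was not measured. PFKP counts were 2.11 to 2.3 times those of PFKL in A10 and 4.89 to 5.35 times in CA1. PFKM counts were 1.06 to 1.23 times those of PFKL in NeoT and 0.367 to 0.7 times in the other 3 lines. Per kilobase, CA1 had 219 CPM of PFKP, 39.1 of PFKL and 14.8 of PFKM.

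The PFKFB genes encode the enzymes that make and remove the sugar phosphate activating phosphofructokinase. PFKFB2 (chromosome 1, 207034416 to 207081027) stood at 26.5, 27.6 and 24.7 CPM for A10, 6.93, 8.41 and 6.67 for NeoT, 25.9, 27.2 and 27.3 for T1, and 38, 40.3 and 35.3 for CA1. NeoT was 3.56-fold below A10 (log2 -1.83, SE 0.11, adjusted p = 3.18e-11), T1 overlapped A10, and CA1 was 1.44-fold above it (adjusted p = 9.77e-05). PFKFB3, the form that favours synthesis of the activator, was called lower than A10 in each derived line. Its mean was 57.7 ± 2.46 CPM for A10, 36.5 ± 3.45 for NeoT, 38.1 ± 2.5 for T1 and 37.5 ± 2.18 for CA1, and no pair of derived lines differed. PFKFB4 averaged 12.8 ± 0.351 CPM in A10, 16.7 ± 0.471 in T1 (called higher) and 9.67 ± 0.405 in CA1 (called lower). Its NeoT mean of 10.8 ± 0.725 did not pass the test against A10 (adjusted p = 0.0627). PFKFB2 counts rose from 0.19 to 0.21 of PFKFB3 counts in NeoT to 0.942 to 1.07 in CA1.

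Aldolase splits the sugar into trioses. ALDOA, the main form, averaged 1664 ± 79.3 CPM for A10, 2017 ± 121 for NeoT, 1985 ± 55.4 for T1 and 2243 ± 87.9 for CA1, higher by 1.21, 1.19 and 1.35-fold. ALDOC, best known from brain (chromosome 17, 28573120 to 28576895), stood at 21.8, 19.4 and 22.5 CPM for A10, 41.2, 42 and 29.5 for NeoT, 15.3, 16.5 and 15.1 for T1, and 87.8, 85.9 and 84.3 for CA1. CA1 was 4.04-fold above A10 (log2 2.02, SE 0.11, adjusted p = 1.12e-11), NeoT 1.77-fold above it (adjusted p = 2.68e-06) and T1 1.36-fold below it (adjusted p = 0.00329). Within libraries ALDOC stayed a minor transcript, at 0.0366 to 0.041 of ALDOA counts in CA1 and 0.0113 to 0.0139 in A10. TPI1, which interconverts the triose phosphates (chromosome 12, 6867420 to 6870948), stood at 513, 565 and 583 CPM in A10, 489.8, 460.0 and 389 in NeoT, 567, 566 and 520.0 in T1, and 249, 278 and 269 in CA1. CA1 was 2.09-fold below A10 (log2 -1.06, SE 0.08, adjusted p = 9.22e-10). In NeoT it was 1.24-fold lower (adjusted p = 0.00183), and T1 overlapped A10.

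The lower trunk did not move as a block. In both NeoT and CA1, GAPDH and ENO1 were higher than in A10 while PGK1, PGAM1 and PKM, which act between or after them, were lower. The small rises of ENO1 in NeoT (1.15-fold) and of GAPDH in CA1 rest on the TMM scaling. Its factors were 1.092 to 1.114 in A10, 0.9209 to 0.9558 in NeoT and 0.9438 to 0.962 in CA1. No fit without scaling between libraries was run. GAPDH, which makes the first NADH of the pathway and is often used as a reference gene, averaged 4143 ± 120.3 CPM for A10, 5970 ± 177 for NeoT, 5322 ± 100.2 for T1 and 4716 ± 97.3 for CA1. All 4 lines were set apart by the test, with NeoT 1.44-fold above A10 (adjusted p = 1.94e-08).

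PGK1, the first ATP-yielding enzyme (chromosome X, 78104248 to 78129295), averaged 585 ± 6.29 CPM for A10, 311 ± 3.18 for NeoT, 614 ± 20.8 for T1 and 376 ± 10.7 for CA1. NeoT was 1.88-fold below A10 (log2 -0.91, SE 0.05, adjusted p = 2.68e-11) and CA1 1.56-fold below it (adjusted p = 4.17e-09), and T1 did not differ by the test (adjusted p = 0.296). PGAM1, the phosphoglycerate mutase, had the same division: 539 ± 4.4 CPM in A10 and 538 ± 14.4 in T1, against 309.7 ± 5.97 in NeoT and 292 ± 6.57 in CA1. It was 1.74-fold lower in NeoT and 1.84-fold lower in CA1 than in A10 (adjusted p = 1.46e-10 and 3.71e-11), and NeoT and CA1 did not differ by the test (adjusted p = 0.171). PKM, the pyruvate kinase of most tissues (chromosome 15, 72199029 to 72231591), averaged 2764 ± 151 CPM for A10, 1707 ± 71.5 for NeoT, 3085 ± 77.1 for T1 and 1495 ± 35 for CA1. It was 1.62-fold lower in NeoT (adjusted p = 2.23e-09) and 1.85-fold lower in CA1 (adjusted p = 7.61e-11). Its slight excess in T1 (log2 0.16, adjusted p = 0.0229) was not called without A10 replicate 1, T1 replicate 1 or T1 replicate 2, at log2 0.12 to 0.15. Gene-level counts do not separate the PKM1 and PKM2 splice forms.

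ENO1, the ubiquitous enolase, changed little: 2527 ± 81.7 CPM for A10, 2908 ± 5.12 for NeoT, 2499 ± 50.3 for T1 and 3026 ± 54.5 for CA1. ENO2, the neuronal enolase, was low in all lines, at 2.34, 3.15 and 2.6 CPM for A10, 6.72, 7.16 and 5.46 for NeoT, 2.85, 2.06 and 2.58 for T1, and 4.79, 3.97 and 5.41 for CA1. NeoT was 2.41-fold (adjusted p = 5.4e-05) and CA1 1.76-fold (adjusted p = 0.00331) above A10, and T1 overlapped A10. Many of these genes have processed pseudogenes. The table holds rows for 3 of them, TPI1P2, TPI1P3 and PGAM1P5, with at most 0.0819% of the parent's counts, and reads shared with other copies remain uncertain.

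**Figure D3:**
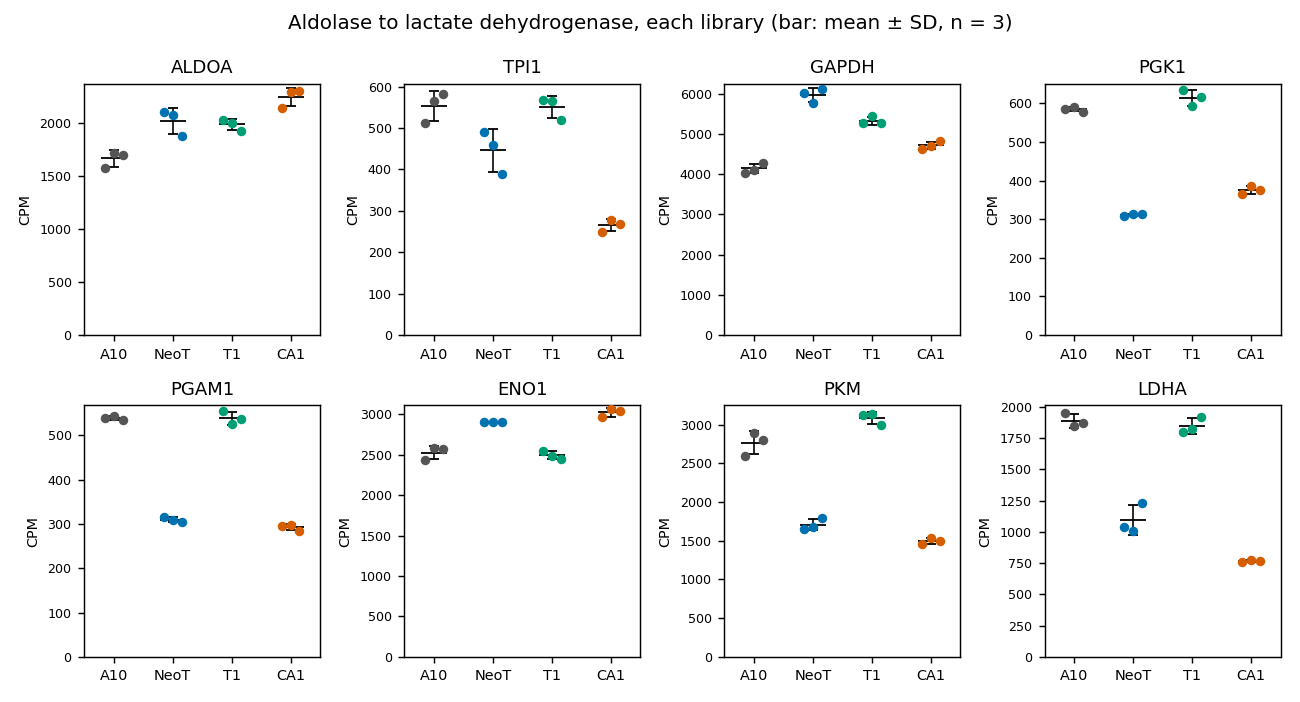
CPM in each library, by line, of ALDOA, TPI1, GAPDH, PGK1, PGAM1, ENO1, PKM and LDHA, with bars for the mean and SD of 3 libraries on linear axes from 0. PGK1, PGAM1, PKM and LDHA are low in NeoT and CA1, where GAPDH and ENO1 lie above A10.

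Of 4 genes of lactate production and export, LDHA and SLC16A1 were lower in NeoT and CA1 than in A10 and T1, and LDHB and SLC16A3 were highest in NeoT and lowest in CA1. LDHA, the subunit that favours lactate formation (chromosome 11, 18394563 to 18408425), stood at 1952, 1844 and 1871 CPM for A10, 1039.8, 1008 and 1229 for NeoT, 1797, 1820 and 1918 for T1, and 761, 772 and 763 for CA1. NeoT was 1.73-fold below A10 (log2 -0.79, SE 0.07, adjusted p = 4.44e-09) and CA1 2.47-fold below it (log2 -1.30, SE 0.07, adjusted p = 4.2e-12), while T1 overlapped A10. LDHB, the subunit that favours pyruvate formation, averaged 680.3 ± 41.2 CPM for A10, 847 ± 25.4 for NeoT, 627 ± 5.64 for T1 and 540.3 ± 13.4 for CA1, 1.25-fold higher in NeoT and 1.26-fold lower in CA1. LDHB counts were 0.345 to 0.368 of LDHA counts in A10 libraries and 0.33 to 0.349 in T1, but 0.711 to 0.818 in NeoT and 0.693 to 0.726 in CA1. Per kilobase of transcript LDHB was above LDHA in NeoT (551 against 452 CPM) and in CA1 (351 against 317), and below it in A10 (442 against 782) and T1 (408 against 764). The order in NeoT and CA1 rests on annotated lengths of 2416 bases for LDHA and 1538 for LDHB. Which transcript forms these lines express was not tested.

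SLC16A1 encodes MCT1, which carries lactate in either direction (chromosome 1, 112911847 to 112956196). It stood at 279.6, 259 and 255 CPM for A10, 118, 126 and 147 for NeoT, 203, 219 and 221 for T1, and 117, 124 and 126 for CA1. It was lower than in A10 in all 3 derived lines, by 2.03-fold in NeoT (adjusted p = 1.04e-09), 1.23-fold in T1 (adjusted p = 0.00266) and 2.16-fold in CA1 (adjusted p = 3.16e-10). SLC16A3 encodes MCT4, the exporter of strongly glycolytic cells (chromosome 17, 82217934 to 82240086). It stood at 504, 569 and 595 CPM for A10, 1133, 1143 and 652 for NeoT, 664, 625 and 573 for T1, and 454, 541 and 484 for CA1. Replicate 3 of NeoT lay within the range of T1 and apart from the other NeoT libraries. NeoT was 1.76-fold above A10 (log2 0.81, SE 0.19, adjusted p = 0.0028), and without that replicate the log2 difference was 1.03 (adjusted p = 2.71e-11). T1 and CA1 did not pass the test against A10 with all libraries (adjusted p = 0.512 and 0.426), and did without NeoT replicate 3 (adjusted p = 0.0451 and 0.0236). T1 lay below NeoT (log2 -0.65, adjusted p = 0.0102) with overlapping replicates, and without NeoT replicate 1 the difference of -0.53 was not called (adjusted p = 0.0504).

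Pyruvate enters the citric acid cycle through pyruvate dehydrogenase, whose E1 alpha subunit is PDHA1 and whose inhibitor kinase is PDK1. PDHA1 averaged 84.3 ± 2.08 CPM for A10, 95.8 ± 7.65 for NeoT, 81.8 ± 5.50 for T1 and 63.3 ± 3.03 for CA1. It was 1.33-fold lower in CA1 (adjusted p = 9.28e-05), and its excess in NeoT (log2 0.19, adjusted p = 0.0355) was not called under 8 alternatives, at log2 0.12 to 0.20. PDK1 averaged 17.9 ± 0.274, 12.9 ± 0.558, 17.7 ± 2.69 and 20.4 ± 1.82 CPM in the same order, and was 1.38-fold lower in NeoT than in A10 (adjusted p = 0.00206). NeoT was also below T1 and CA1 (adjusted p = 0.00289 and 0.000106).

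All 3 pentose phosphate members were called higher than A10 in each derived line, in comparisons that share the A10 libraries, beside 33.7% of all genes in NeoT, 26% in T1 and 34.4% in CA1. Among genes of at least 100 CPM the shares called higher were 46.2%, 38.6% and 47.7%. TKT, the transketolase that links the pathway back to glycolysis (chromosome 3, 53224712 to 53256022), stood at 858, 981 and 962 CPM for A10, 2965, 2930 and 3044 for NeoT, 1327, 1382 and 1273 for T1, and 3174, 3406 and 3449 for CA1. It was 3.19-fold above A10 in NeoT (log2 1.67, SE 0.06, adjusted p = 2.88e-14), 1.42-fold in T1 (adjusted p = 1.02e-06) and 3.58-fold in CA1 (log2 1.84, SE 0.06, adjusted p = 9e-15). No line overlapped another, and NeoT and CA1 differed by only 1.12-fold (adjusted p = 0.0209), a difference not called under upper-quartile scaling or without CA1 replicate 2, CA1 replicate 3 or NeoT replicate 2 (log2 0.10 to 0.16 there, 0.17 with all libraries).

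PGD, the dehydrogenase that makes the second NADPH (chromosome 1, 10399064 to 10420511), averaged 175 ± 7.36 CPM for A10, 348 ± 6.78 for NeoT, 198 ± 6.35 for T1 and 332 ± 4.84 for CA1. It was 1.99-fold higher in NeoT (adjusted p = 1.84e-11) and 1.9-fold higher in CA1 (adjusted p = 5.21e-11). Its 1.13-fold excess in T1 (log2 0.18, adjusted p = 0.0137) was not called without A10 replicate 1, T1 replicate 1 or T1 replicate 2, at log2 0.14 to 0.16. TALDO1, the transaldolase, averaged 133 ± 4.36, 225 ± 13, 173 ± 1.94 and 219.7 ± 3.42 CPM in A10, NeoT, T1 and CA1. It was 1.69, 1.3 and 1.65-fold above A10 in the derived lines, and NeoT and CA1 overlapped.

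PGM1 interconverts glucose 1-phosphate from glycogen and glucose 6-phosphate (chromosome 1, 63593411 to 63660245). It stood at 125, 119 and 119 CPM for A10, 145, 149.8 and 137 for NeoT, 187, 193 and 184 for T1, and 247, 244 and 259 for CA1. It was 1.19-fold above A10 in NeoT (adjusted p = 0.00109), 1.56-fold in T1 (adjusted p = 4.75e-08) and 2.06-fold in CA1 (log2 1.05, SE 0.06, adjusted p = 2.09e-11), with no overlap between lines. PYGB, the brain-form glycogen phosphorylase that frees glucose 1-phosphate and is no member, was higher than A10 in all 3 derived lines too, by 6.77-fold in NeoT, 3.06-fold in T1 and 4.23-fold in CA1 (adjusted p = 1.35e-17, 5.52e-14 and 6.79e-16). Its order, with NeoT highest, was not that of PGM1.

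**Figure D4:**
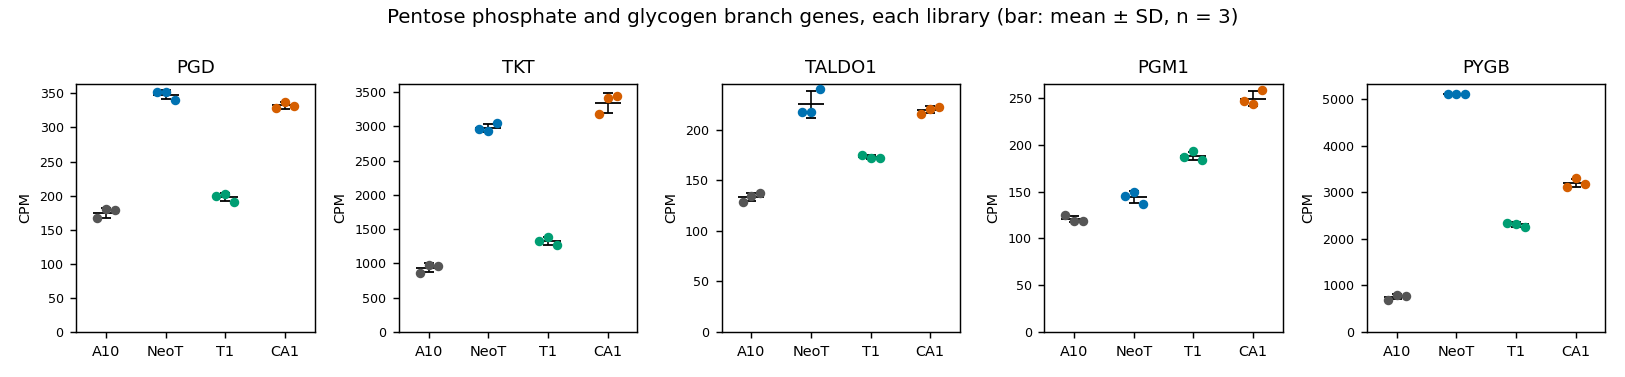
CPM of PGD, TKT, TALDO1, PGM1 and the non-member PYGB in each library by line, with bars for the mean and SD of 3 libraries on linear axes from 0. TKT lies between 858 and 981 in A10 and between 2930 and 3449 in NeoT and CA1, while PGM1 rises from A10 to CA1.

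The ratios of isoenzymes within a library do not depend on scaling between libraries. The plot of isoenzyme ratios shows that the ratio of HK2 to HK1 set all 4 lines apart, lowest in NeoT and highest in CA1. The ratio of LDHB to LDHA set NeoT and CA1 against A10 and T1. The ratio of PFKFB4 to PFKFB3 was highest in T1, at 0.427 to 0.458, beside 0.218 to 0.227 in A10. The ratio of SLC16A3 to SLC16A1 ran from 4.42 to 9.64 in NeoT, whose replicate 3 gave the low end, and from 1.8 to 2.34 in A10. With 3 libraries against 3 an exact permutation test cannot go below 0.1, so the ranges are given without a test.

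**Figure D5:**
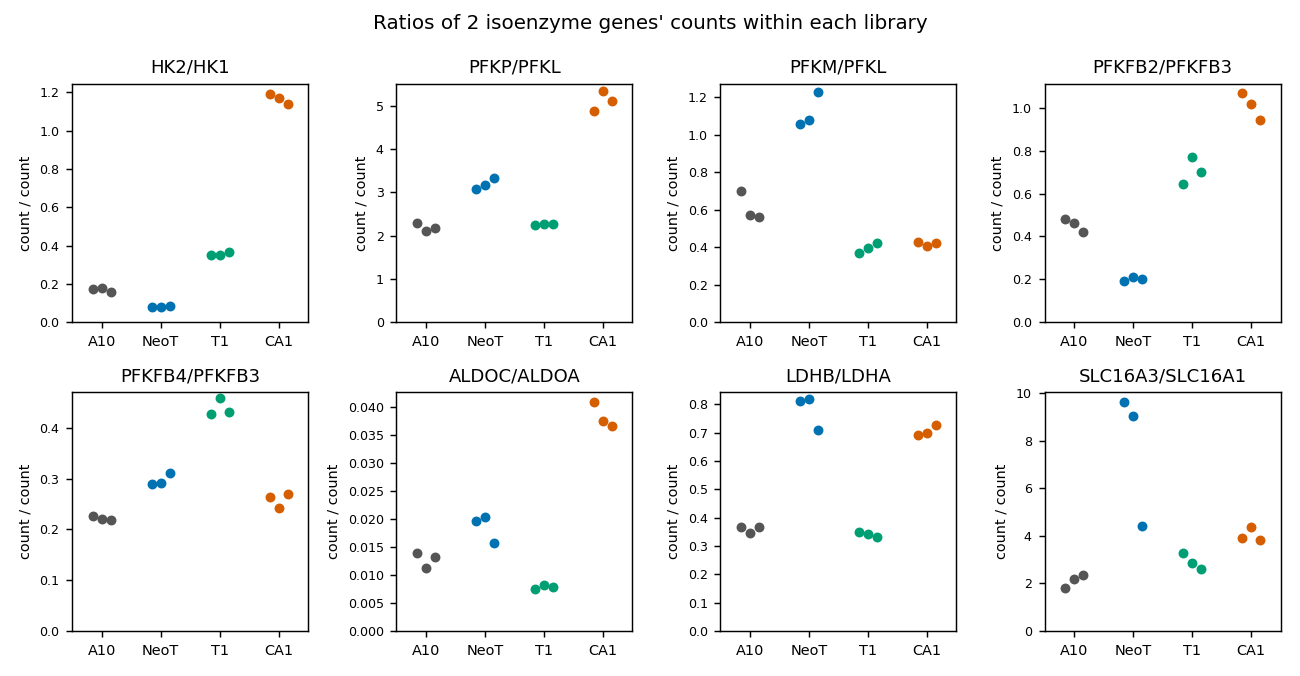
Ratio of the counts of 2 isoenzyme genes in each library, by line, for 8 pairs, with each axis from 0. HK2 over HK1 is 1.14 to 1.19 in CA1 and at most 0.365 elsewhere, and LDHB over LDHA is at least 0.693 in NeoT and CA1 and at most 0.368 in A10 and T1.

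NeoT against A10 and CA1 against T1 share no library and can be set beside each other. CA1 against T1 had 12 members higher and 14 lower, beside 30.4% and 31.9% of all genes. PFKP, ALDOA, ALDOC, ENO1, ENO2, PGM1, PGD, TKT and TALDO1 were higher in both comparisons, which is 50% of the 18 higher in NeoT and 75% of the 12 higher in CA1. TPI1, PGK1, PGAM1, PKM, LDHA and SLC16A1 were lower in both, 60% of 10 and 42.9% of 14. Over all genes tested, 2132 were higher in both (43.9% of those higher in NeoT and 48.7% of those higher in CA1) and 2357 lower in both (44.6% and 51.3%). LDHA was 2.41-fold lower in CA1 than in T1 and TKT 2.52-fold higher (adjusted p = 1.27e-11 and 1.66e-12). Another 9 members were called in opposite directions. SLC2A3, GPI, PFKL, PFKM, GAPDH, LDHB and PDHA1 were higher in NeoT than in A10 and lower in CA1 than in T1, which is 38.9% of the 18 and 50% of the 14, where over all genes these shares were 22.4% and 23.7%. SLC2A1 and PFKFB2 were lower in NeoT and higher in CA1, 20% of 10 and 16.7% of 12, beside 21.9% and 26.5% of all genes.

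The remaining comparisons separate NeoT from its xenograft descendants. T1 against NeoT had 12 members higher and 14 lower, beside 35% and 32.4% of all genes, and CA1 against NeoT had 9 and 12, beside 33.8% and 32.7%. T1 had 7.64-fold more SLC2A1, 3.64-fold more PFKFB2, 1.97-fold more PGK1 and 1.81-fold more PKM than NeoT, and 2.79-fold less PFKM and 2.25-fold less TKT, each called. CA1 had 6.37-fold more HK2 and 5.13-fold more PFKFB2 than NeoT, and 3.99-fold less PFKM, 2.7-fold less GPI and 1.98-fold less SLC16A3, each called.

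Among other genes of the same pathways, 103 had a row and 81 were tested. Against A10, 38 were higher and 25 lower in NeoT (46.9% and 30.9%, beside 33.7% and 36.7% of all genes), 31 and 24 in T1 (38.3% and 29.6%, beside 26% and 25.9%), and 35 and 35 in CA1 (43.2% each, beside 34.4% and 36.5%). In CA1 all 4 tested glucose-sensing genes were higher, where 34.4% of all genes were, among them ARRDC4 (4.74-fold, adjusted p = 7.7e-14) and TXNIP, an inhibitor of glucose uptake (2.94-fold, adjusted p = 2.45e-14). TXNIP was 8.15-fold higher in NeoT (adjusted p = 3.34e-18). It was thus higher than in A10 both in the line lowest in SLC2A1 (NeoT) and in the line highest in it (CA1), and a link was not tested. In NeoT the kinase gene PDK4, which inhibits pyruvate dehydrogenase, was 10.6-fold higher and the opposing phosphatase gene PDP1 4.77-fold lower (adjusted p = 4.49e-14 and 1.4e-14). PDK4 was also 5.77-fold higher in T1 (adjusted p = 7.73e-12) and averaged 24.1 CPM in CA1 against 5.53 in A10. PDP1 averaged 63.5 CPM in A10, 78.2 in T1 and 106 in CA1. The table's C12orf5, the former symbol of the fructose bisphosphatase TIGAR, was 3.58-fold lower in NeoT (adjusted p = 3.18e-12).

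Of 18 regulators and non-metabolic targets of HIF1, 9 were higher and 8 lower in NeoT than in A10 (50% and 44.4%, beside 33.7% and 36.7% of all genes). There were 4 and 8 in T1 (22.2% and 44.4%, beside 26% and 25.9%), and 3 and 11 in CA1 (16.7% and 61.1%, beside 34.4% and 36.5%). HIF1A itself averaged 285 ± 10.9 CPM for A10, 738 ± 142 for NeoT, 316 ± 13.0 for T1 and 233 ± 1.09 for CA1. MYC averaged 407 ± 16.3, 1067 ± 112, 403 ± 9.65 and 240.8 ± 3.00 CPM in the same order. In CA1, VEGFA (3.78-fold, adjusted p = 2.26e-14) and P4HA1 (4.24-fold, adjusted p = 2.49e-14) were higher, and CA12 (13.9-fold, adjusted p = 2.04e-17), ANGPTL4 (9.29-fold, adjusted p = 4.9e-14) and NDRG1 (3.14-fold, adjusted p = 1.7e-13) were lower. As examples from the many members that are textbook HIF1 targets, HK2 and SLC2A1 were higher in CA1, while PGK1 and LDHA were lower. The 18 genes mix regulators with targets, so their counts have no single direction. The part of HIF1 in any of these levels was not tested. In T1, CA12 (3.49-fold, adjusted p = 1.94e-13) and SLC2A6, another glucose transporter gene (log2 -4.86, adjusted p = 2.06e-11), were lower, and the arrestin-domain gene ARRDC4 was 6.83-fold higher (adjusted p = 1.03e-14).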

How the data were processed

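Libraries were made, per the labels, from DNase-treated total RNA with an NEBNext Ultra kit. The authors deposited a table of Salmon's estimated counts (expected counts) per gene, as its name says, not scaled between libraries. The submitters' processing notes name GRCh38 and limma. Versions and annotation are not given in the sources used here. Of the values 10.1% were not whole, and all were rounded, which changed none by more than 0.5. Replicates are biological per the labels, and nothing says whether cultures were separate, so p-values measure the spread between these libraries.

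The members and lists were chosen with earlier results of these data known. The 12 libraries were fitted together with a mean per line (edgeR 4.0.16 quasi-likelihood test, filterByExpr, TMM scaling, robust dispersions, R 4.3.3). All 6 pairs of lines and a test among the 4 lines were two-sided, with Benjamini-Hochberg adjustment over the 14417 genes tested, and called under 0.05. Folds are fitted, except that lines with 1 to 3 counts are given as CPM ratios with exact 95% counting intervals. A count of 0 allows up to 3 counts over a line, 0.0326 to 0.0474 CPM, for counting error only. Levels per kilobase use the GENCODE length of an annotated main transcript of each gene, which may differ from the annotation of the authors and from the forms expressed. Gene positions and promoters are RefSeq's (GRCh38.p14). Every member is described. Other genes were named by rule: in each comparison with A10, up to 4 per direction of smallest adjusted p among called pathway genes with a fold of at least 2 and at least 10 CPM in the higher line, of which some are printed. HRAS and markers were named as checks, and HIF1A and MYC after their values were seen. The alternatives tried were DESeq2 1.42.0 and limma-voom (limma 3.58.1), upper-quartile and RLE scaling, a filter of 1 CPM in 3 libraries or none, only the libraries of a pair, the replicate number as a block, rRNA rows removed, pseudogene rows added, T1 replicate 1 and NeoT replicate 3 both removed, and each library removed in turn. Figures used matplotlib 3.10.9. Erythroid markers and protein sequences were not analysed here.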

Additional observations from a re-analysis of the deposited data

How the results depend on the processing

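All 298 recomputed counts of members called stayed within 1.5 times the reported ones. Of 4139 recomputed log2 fold changes, 4056 kept direction and side of the threshold, 32 lost a call, 17 gained one and 34 changed sign. The sign changes touched 15 uncalled differences of at most 0.1079 on the log2 scale. With each library left out in turn, T1 against A10 ran from -0.0596 to 0.0334 for TPI1, -0.0128 to 0.0661 for PFKFB2, -0.0265 to 0.0151 for PGAM1, -0.22 to 0.0171 for ENO2, -0.0996 to 0.1018 for PDK1 and -0.0864 to 0.0092 for PDHA1. T1 against NeoT ran from -0.0234 to 0.0049 for GPI, -0.0363 to 0.0457 for PFKL, -0.0702 to 0.01 for ALDOA and -0.0035 to 0.1335 for PFKFB3. CA1 against T1 ran from -0.0772 to 0.0179 for PFKFB3. CA1 against NeoT ran from -0.0258 to 0.1101 for PFKFB3, -0.1621 to 0.0029 for SLC16A1 and -0.0574 to 0.0149 for TALDO1. Upper-quartile scaling gave -0.0415 for PFKL in T1 against NeoT, and -0.0337 for PFKFB3 and -0.0127 for ENO1 in CA1 against NeoT. The filter of 1 CPM in 3 libraries gave 0.0001 for PGAM1 in T1 against A10. Without T1 replicate 1 and NeoT replicate 3, PDK1 in T1 against A10 was 0.1032, PFKL and PFKFB3 in T1 against NeoT were -0.0621 and -0.0541, and PFKFB3 was 0.0102 in CA1 against T1 and -0.044 in CA1 against NeoT. The cause was not tested.

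The calls of ALDOA in CA1 against NeoT (8 settings) and against T1 (3) and of PDHA1 in T1 against NeoT (2) were lost beside those already given.

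Numbered replicates did not pair: same-numbered libraries had deviations correlated at -0.069 to 0.088, none over 0.1, and 5 of 12 libraries were closest to their own number. With the replicate number as a block, 18 members were higher and 10 lower in NeoT than in A10, and no member's call changed.

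Calls of small folds among abundant genes rest on the small spread of 3 libraries per line, and SLC2A3 in CA1 rests on 3 counts. Small folds also depend on scaling between libraries, which every alternative kept in some form.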
